A study of Mus musculus with 8 samples.

Results

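The genes described here are 69 axon guidance ligands and receptors among the 55471 gene rows of a mouse RNA pull-down dataset. They were chosen by name alone, as protein-coding rows whose Ensembl identifier carried a symbol of the Eph receptor, ephrin, semaphorin (classes 3 to 7), plexin, neuropilin, Slit, Robo, netrin, Unc5 or Dcc families. The naming rule used no measured value, though it was set with earlier results of these data known. The set held 35 ligands and 34 receptors in 15 groups, out of 21974 protein-coding rows. Each of the 69 had at least 1 count, and 64 passed the filter on low counts and were tested. Epha1, Efna1, Sema3g, Robo4 and Ntn5 did not pass it.

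Growing axons are steered by surface and secreted cues that the growth cone reads with matching receptors. Ephrins are held on the membrane and act on Eph receptor kinases, semaphorins act on plexins with neuropilins as partners for the secreted class 3, Slits act on Robos, and netrins act on Dcc and the Unc5 receptors. In the spinal cord, EphA4 and ephrins sort limb motor axons, class 3 semaphorins time their growth and bundling, and netrin from the floor plate and Slit from the midline and from motor neurons steer commissural and motor axons.

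The cells were motor neurons differentiated from mouse HBG3 embryonic stem cells, a single line that carries a GFP reporter driven by the Hb9 promoter, which is active in motor neurons. The stem cells were kept on gelatin or on mouse embryonic fibroblasts before differentiation, and RNA was taken from cells grown for 3 days after dissociation and plating on polyornithine and laminin with BDNF, CNTF, GDNF, ascorbic acid and a kinase inhibitor. All 4 groups shared that culture and differed only in the RNA taken. Input was RNA without capture, LacZ was the control capture, with 20 nt biotinylated antisense probes to a bacterial RNA, and ODD and EVEN were captured with separate probe sets against Lhx1os, a long noncoding RNA. Each group had 2 libraries, replicate 1 and replicate 2, which came from independent experiments. Enrichment in the study was read as a pull-down over its Input.

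The smallest total was 7632775 counts (LacZ replicate 1) and the largest 24628435 (Input replicate 1). Counts of Lhx1os itself were 55 and 61 without capture, 16 and 28 after LacZ capture, 2239 and 371 after ODD capture and 1767 and 283 after EVEN capture. The target was thus high in the libraries captured with probes against it, and far more so in replicate 1 than in replicate 2. Motor neuron transcripts were present throughout: the reporter's own gene Mnx1, which encodes Hb9, had between 21.2 and 30.7 FPKM (counts per kilobase of exon, scaled to the library total) in all 8 libraries. The culture also held other cells. The summed level of 6 neural progenitor markers was 242 to 482 FPKM, of 3 floor plate markers 49.0 to 127 FPKM, of 6 glial markers 17.0 to 141 FPKM and of 6 fibroblast markers 13.8 to 40.4 FPKM. Pluripotency markers summed to at most 0.203 FPKM with Pou5f1 and Dppa5a at 0, and 3 immune markers to at most 0.212 FPKM. In such mixed cultures, fewer cells of a type and less RNA per cell cannot be told apart. The labels do not say that libraries of a group came from separate cultures beyond the experiment number, so p-values measure the spread between these libraries.

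Guidance genes were well expressed in these cells. Their median level in Input was 6.53 FPKM against 1.62 FPKM over all protein-coding rows, and 59 of the 69 reached 1 FPKM, 22 of them at least 10 FPKM. Of all counts, the set took 0.921% and 0.667% in Input and 0.608% to 0.671% after capture. The summed level was led by a few members: Ntn1 alone held 28.7% of the summed Input FPKM of the 69, and Ntn1, Slit1, Plxnb2, Plxna1 and Slit3 together held 50.7%. By family, the netrins summed to 301 ± 107 FPKM in Input (SD, n = 2), the plexins to 169 ± 54.3, the Slits to 154 ± 25.8, the ephrin-Bs to 61.0 ± 6.39, the EphB receptors to 54.9 ± 21.7 and the class 6 semaphorins to 52.6 ± 9.40. The remaining families summed to between 5.62 FPKM for Sema7a alone and 38.2 FPKM for the ephrin-As. The spread between the Input libraries was wide for the netrins and plexins, and neighbours in this order such as plexins and Slits, or ephrin-Bs, EphBs and class 6 semaphorins, did not differ beyond it.

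**Figure D1:**
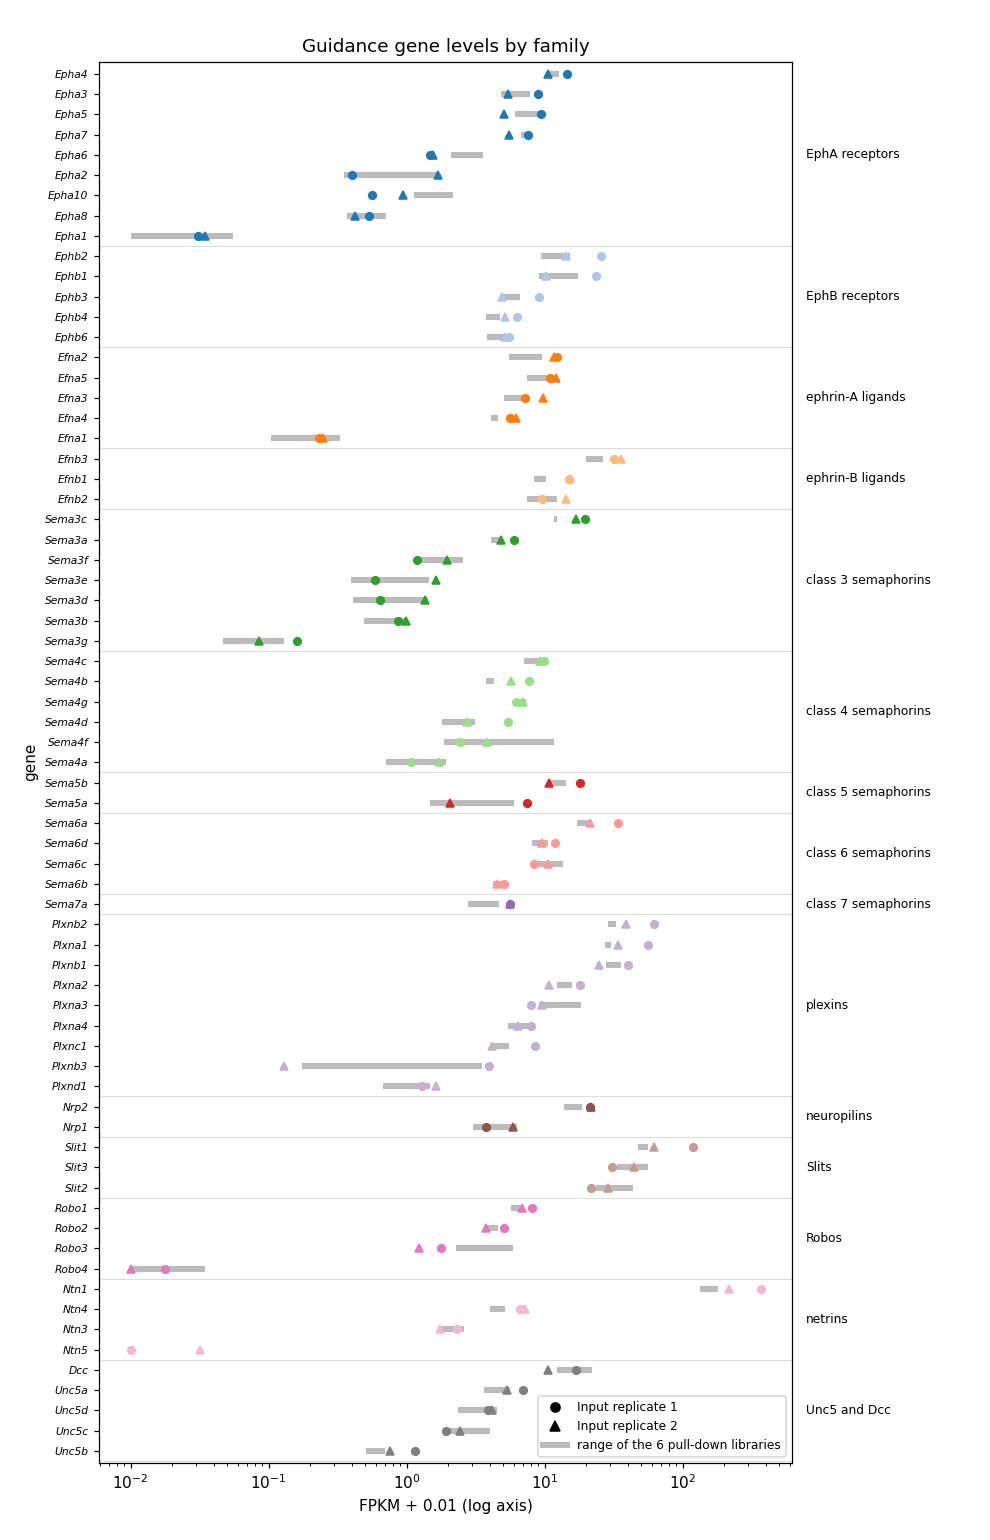
Level of each guidance gene as FPKM + 0.01 on a log axis, grouped by family, with a circle for Input replicate 1, a triangle for Input replicate 2 and a grey bar for the range of the 6 pull-down libraries. Ntn1 and Slit1 lie farthest to the right, both with pull-downs below both Input libraries, and Robo3, Epha10 and Epha6 are the genes whose grey bar lies wholly above both Input points. Ntn5 was at 0 in every pull-down, so its bar is hidden under the circle.

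Among the secreted ligands, Ntn1, the netrin of floor plate and progenitors that draws commissural axons, was the most abundant member at rank 32 of all protein-coding rows by mean Input level. It had 367 and 217 FPKM in Input, 172 and 153 after LacZ capture, 182 and 151 after ODD capture and 179 and 135 after EVEN capture. Slit1, a midline repellent, was at rank 286 with 119.6 and 62.02 FPKM in Input, 53.1 and 47.6 after LacZ capture, 53.8 and 50.4 after ODD capture and 56.7 and 47.8 after EVEN capture. Both genes were higher in Input replicate 1 than in any other library, and both Input libraries lay above all 6 pull-downs. The other Slits went the other way between replicates. Slit2 had 21.7 and 28.6 FPKM in Input, 25.9 and 43.7 after LacZ capture, 23.4 and 43.9 after ODD capture and 24.1 and 38.4 after EVEN capture. Slit3 had 30.8 and 44.8 in Input, 37.2 and 56.1 after LacZ capture, 33.5 and 51.8 after ODD capture and 35.9 and 49.3 after EVEN capture. Every replicate 2 library was above every replicate 1 library for both, and within each experiment each pull-down was above its own Input. Ntn4, a netrin of basement membranes, had 6.64 and 7.23 FPKM in Input and 4.03 to 5.16 in the pull-downs, and Ntn3 between 1.70 and 2.58 in all libraries. Ntn5 gave 1 count in all, in Input replicate 2.

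Of the class 3 semaphorins, the secreted cues read through neuropilins, Sema3c was the most abundant. Its level was 19.8 and 16.9 FPKM in Input, 12.3 and 11.8 after LacZ capture, 11.7 and 12.3 after ODD capture and 11.9 and 12.2 after EVEN capture, with both Input libraries above all others. Sema3a, the repellent known for restraining early motor and sensory axons, had 5.98 and 4.80 FPKM in Input, 4.21 and 4.67 after LacZ capture, 4.11 and 4.92 after ODD capture and 4.26 and 4.39 after EVEN capture, and its groups overlapped. Sema3f had 1.19 and 1.94 in Input, 1.54 and 2.54 after LacZ capture, 1.15 and 2.53 after ODD capture and 1.49 and 2.12 after EVEN capture, high in every replicate 2 library. Sema3b, Sema3d and Sema3e lay between 0.386 and 1.63 FPKM, and Sema3g did not exceed 0.152 FPKM.

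The membrane-bound semaphorins were led by Sema6a, a ligand of plexin-A receptors that keeps motor neuron cell bodies inside the cord, with 33.9 and 21.3 FPKM in Input, 22.03 and 18.9 after LacZ capture, 19.7 and 18.03 after ODD capture and 20.6 and 17.2 after EVEN capture. The most abundant class 5 member, Sema5b, had 18.02 and 10.8 FPKM in Input, 13.0 and 13.3 after LacZ capture, 14.3 and 11.97 after ODD capture and 13.9 and 10.9 after EVEN capture. The most abundant class 4 member, Sema4c, had 9.86 and 9.24 in Input, 7.10 and 10.3 after LacZ capture, 7.63 and 10.6 after ODD capture and 7.31 and 9.97 after EVEN capture. For Sema4c the pull-downs split by experiment around the Input libraries, low in replicate 1 and high in replicate 2. Sema7a, the anchored class 7 member, had 5.63 and 5.62 FPKM in Input and 2.78 to 4.70 in the pull-downs, all below Input.

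Ephrins were present in both classes. Efnb3, a midline barrier to crossing axons, was the most abundant, with 31.8 and 35.8 FPKM in Input, 19.9 and 26.6 after LacZ capture, 21.6 and 26.05 after ODD capture and 20.6 and 25.96 after EVEN capture. Efnb1 had 15.04 and 15.3 FPKM in Input, 8.65 and 10.2 after LacZ capture, 8.37 and 9.22 after ODD capture and 9.05 and 9.78 after EVEN capture. For both genes the Input libraries lay close together and above all pull-downs. Efnb2, the ligand that guides EphB-bearing motor axons in the limb, had 9.65 and 14.3 in Input, 8.39 and 12.3 after LacZ capture, 7.51 and 11.97 after ODD capture and 8.04 and 10.8 after EVEN capture, and was higher in replicate 2 throughout. Efna2 led the ephrin-As, with 12.4 and 11.8 FPKM in Input, 9.65 and 5.56 after LacZ capture, 8.74 and 5.62 after ODD capture and 8.55 and 5.53 after EVEN capture. Efna5 followed with 10.96 and 12.04 in Input, 7.51 and 11.3 after LacZ capture, 7.46 and 10.2 after ODD capture and 8.12 and 9.88 after EVEN capture. Input was above every pull-down for Efna2, while for Efna5 LacZ replicate 2 lay between the Input libraries. The pull-downs of these ephrins split by experiment in opposite ways. Efna1 stayed at or under 0.319 FPKM.

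The Eph receptors were led by EphB kinases. Ephb2 had 25.8 and 14.2 FPKM in Input, 15.2 and 11.1 after LacZ capture, 13.6 and 10.6 after ODD capture and 14.7 and 9.47 after EVEN capture. Ephb1, which sends medial limb motor axons ventrally, had 23.5 and 10.2 in Input, 17.5 and 9.90 after LacZ capture, 15.5 and 10.9 after ODD capture and 15.8 and 9.16 after EVEN capture. Both were higher in replicate 1 of each group, and only for Ephb1 of the pair did the experiments not overlap. Epha4, the receptor of lateral limb motor axons, had 14.5 and 10.5 FPKM in Input, 12.7 and 11.1 after LacZ capture, 10.5 and 10.6 after ODD capture and 11.01 and 10.3 after EVEN capture. Epha3, of axial motor axons, had 9.03 and 5.47 in Input, 7.88 and 5.61 after LacZ capture, 7.55 and 5.58 after ODD capture and 7.22 and 4.79 after EVEN capture. Epha7 had 7.55 and 5.52 in Input, 7.28 and 6.80 after LacZ capture, 6.95 and 7.61 after ODD capture and 7.36 and 7.13 after EVEN capture. The groups overlapped for all 3 receptors, and Epha3 split by experiment with no overlap. Epha8 lay between 0.362 and 0.695 FPKM, and Epha1 gave at most 2 counts in a library.

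Plexins, the semaphorin receptors, were led by Plxnb2, a class 4 semaphorin receptor of neural progenitors, at 62.3 and 38.7 FPKM in Input, 30.1 and 30.97 after LacZ capture, 28.7 and 33.2 after ODD capture and 29.2 and 33.1 after EVEN capture. Plxna1, a partner of neuropilins, had 56.5 and 34.3 in Input, 28.8 and 29.9 after LacZ capture, 30.04 and 29.5 after ODD capture and 30.3 and 27.7 after EVEN capture. In both, Input replicate 1 stood above all other libraries and Input replicate 2 above the pull-downs by a smaller step. Plxna2 had 18.2 and 10.7 FPKM in Input, 14.8 and 14.1 after LacZ capture, 14.4 and 13.6 after ODD capture and 15.9 and 12.4 after EVEN capture. Plxna4, which carries Sema3a signals with Nrp1, had 8.004 and 6.37 in Input, 5.57 and 8.23 after LacZ capture, 5.45 and 7.32 after ODD capture and 5.59 and 6.72 after EVEN capture. For Plxna2 and Plxna4 the pull-downs were below Input in replicate 1 and above it in replicate 2. Plxna3, a Sema3f receptor, had 8.02 and 9.57 in Input, 10.3 and 17.9 after LacZ capture, 9.06 and 18.4 after ODD capture and 9.48 and 18.5 after EVEN capture, high in the replicate 2 pull-downs. Plxnc1, the Sema7a receptor, had 8.49 and 4.19 FPKM in Input and 4.15 to 5.56 in the pull-downs. Plxnd1, the Sema3e receptor, had 1.28 and 1.63 in Input, 0.664 and 1.47 after LacZ capture, 0.839 and 1.43 after ODD capture and 0.909 and 1.13 after EVEN capture, low in the replicate 1 pull-downs.

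Of the neuropilins, Nrp2 had 21.3 and 21.8 FPKM in Input, 14.5 and 18.8 after LacZ capture, 13.9 and 18.6 after ODD capture and 14.5 and 18.3 after EVEN capture. Nrp1, the Sema3a co-receptor, had 3.76 and 5.92 in Input, 3.19 and 6.27 after LacZ capture, 3.03 and 6.26 after ODD capture and 3.16 and 5.15 after EVEN capture. Nrp2 was lower in every pull-down than in Input, whereas Nrp1 was high in every replicate 2 library. Among Slit receptors, Robo1 had 8.09 and 6.91 FPKM in Input, 5.73 and 6.46 after LacZ capture, 5.68 and 6.65 after ODD capture and 5.89 and 6.15 after EVEN capture. Robo2 had 5.08 and 3.75 in Input, 4.20 and 4.57 after LacZ capture, 3.70 and 4.49 after ODD capture and 4.41 and 4.12 after EVEN capture. Robo1 lay below Input in every pull-down, and the Robo2 groups overlapped. Robo4, a receptor of blood vessels, gave at most 1 count in a library.

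Dcc, the netrin receptor of commissural axons, had 17.0 and 10.5 FPKM in Input, 16.4 and 13.0 after LacZ capture, 14.6 and 12.9 after ODD capture and 22.1 and 12.4 after EVEN capture. Unc5a had 6.99 and 5.32 in Input, 5.44 and 4.78 after LacZ capture, 5.21 and 3.78 after ODD capture and 5.602 and 3.62 after EVEN capture. Unc5c, which repels motor axons from netrin, had 1.93 and 2.43 in Input, 2.06 and 3.26 after LacZ capture, 1.96 and 4.002 after ODD capture and 1.83 and 2.93 after EVEN capture. Every replicate 1 library was above every replicate 2 library for Dcc, the reverse held for Unc5c, and Unc5a was higher in replicate 1 of each group. Unc5b, best known from blood vessels, had 1.14 and 0.756 FPKM in Input, 0.586 and 0.559 after LacZ capture, 0.687 and 0.606 after ODD capture and 0.617 and 0.498 after EVEN capture, with both Input libraries above the pull-downs. Reads of Unc5a, Ephb4 and Ephb1 cannot be told apart from those of genes on the other strand over the same bases (Hk3, Zan and 9630041A04Rik) unless the counting used the strand, a setting not given in the sources read. Ntn3 and Tbc1d24 overlap on the same strand, where no strand setting separates them.

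The first tests asked which guidance RNAs a pull-down held at another level than Input. Almost none passed. In LacZ against Input, 0 of 64 guidance genes were higher and 1 was lower by edgeR's quasi-likelihood test at an adjusted p of 0.05, where 6.98% and 0.43% of the 16524 genes tested were. ODD against Input gave 0 higher and 1 lower, beside 6.46% and 0.375% of all genes, and EVEN against Input 0 and 0, beside 5.37% and 0.284%. Those shares include noncoding rows. Of the 13455 protein-coding genes tested, 75 were higher and 71 lower in LacZ. For ODD these counts were 73 and 61, and for EVEN 72 and 47. The guidance gene that fell was Efnb1, a transmembrane ligand of EphB receptors. Its log2 fold change was -0.73 ± 0.16 (SE) in LacZ (edgeR adjusted p 0.0405) and -0.80 ± 0.16 in ODD (edgeR adjusted p 0.0304). In EVEN it was -0.67 ± 0.16, with an edgeR adjusted p of 0.0638. These comparisons share the Input libraries, so they are not independent of each other. The other genes nearest the threshold in EVEN were Sema4b at -0.80 ± 0.20 (edgeR adjusted p 0.0741) and Sema3c at -0.58 ± 0.15 (edgeR adjusted p 0.0856). At an unadjusted edgeR p under 0.05 there were 13, 14 and 12 guidance genes in LacZ, ODD and EVEN, beside 18.9%, 18.3% and 18.8% of all genes. Among the 13455 protein-coding genes tested there were 1409, 1409 and 1578. DESeq2 called 0 higher and 3 lower in LacZ, and for ODD and EVEN the counts were 0 and 2, and 1 and 3, where it called 1663, 1560 and 1452 of all genes in either direction. The limma test on log2(FPKM + 1) called Efnb1 in LacZ and ODD, and no guidance gene in EVEN. It called 1035, 805 and 440 of all genes in LacZ, ODD and EVEN in either direction. Leaving out any 1 of the 8 libraries ended the Efnb1 call in both comparisons, with edgeR adjusted p-values of 0.0687 to 0.203 in LacZ and 0.0528 to 0.178 in ODD.

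More guidance genes passed once the difference between the experiments was taken out with the replicate number as a block, and most of them were lower than Input. With the block, LacZ against Input had 3 higher and 11 lower, beside 12.7% and 7% of all genes. ODD against Input had 3 and 11, beside 12.6% and 6.55%, and EVEN against Input 3 and 9, beside 12.8% and 6.41%. Of the 13455 protein-coding genes tested, the fit with the block called 500 higher and 1147 lower in LacZ. For ODD the protein-coding counts were 569 and 1070, and for EVEN 705 and 1044. The median log2 fold change of the guidance genes without the block was -0.29 in LacZ, -0.25 in ODD and -0.30 in EVEN. It was -0.05, -0.03 and -0.00 over all genes tested, and -0.11, -0.10 and -0.07 over protein-coding genes tested. The change was negative in 48, 50 and 50 of the 64, beside 63.4%, 61.3% and 57.6% of protein-coding genes tested. In counts scaled by TMM, all 6 pull-down libraries lay below both Input libraries for 17 guidance genes, or 26.6% (13.5% of all genes tested), and above both for 3, or 4.69% (17.7% of all genes tested). Set against the Input of the same experiment, the 3 pull-downs were lower in both experiments for 27 (42.2%, beside 24.7% of all genes) and higher in both for 8 (12.5%, beside 23.4%). For 9, or 14.1%, among them Plxna2, Plxna4, Plxnb1, Plxnb3 and Robo2, they were lower in replicate 1 and higher in replicate 2 (6.09% of all genes). For 0 the reverse held (8.36%). The shares of all genes in these library orders include noncoding rows and were not computed for protein-coding genes alone.

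The 3 genes above Input in every pull-down were receptors. Robo3, the Robo of commissural axons that silences Slit repulsion before crossing, had 1.78 and 1.22 FPKM in Input, 5.09 and 2.29 after LacZ capture, 5.94 and 2.66 after ODD capture and 5.78 and 3.30 after EVEN capture. With the block its log2 fold change was 1.18 ± 0.19 in LacZ (edgeR adjusted p 0.0055), 1.43 ± 0.19 in ODD (0.00252) and 1.59 ± 0.19 in EVEN (0.00214). Without the block the edgeR adjusted p was 0.277, 0.185 and 0.164. After scaling for library size, Robo3 was 1.82 to 3.33 times its own Input in each of the 6 pull-downs, the LacZ control included. Epha10, an Eph receptor thought to lack kinase activity, had 0.552 and 0.941 FPKM in Input, 1.38 and 1.89 after LacZ capture, 1.14 and 2.17 after ODD capture and 1.12 and 1.36 after EVEN capture. Its log2 fold change with the block was 1.11 ± 0.20, 1.12 ± 0.20 and 0.79 ± 0.20 in LacZ, ODD and EVEN (edgeR adjusted p 0.00835, 0.00775 and 0.032). Epha6, an ephrin-A receptor of neurons, had 1.48 and 1.55 FPKM in Input, 2.58 and 3.34 after LacZ capture, 2.11 and 3.55 after ODD capture and 3.19 and 2.44 after EVEN capture. Its log2 fold change with the block was 0.92 ± 0.25, 0.86 ± 0.25 and 0.92 ± 0.25 (edgeR adjusted p 0.0403, 0.0489 and 0.0386). All 3 were low-abundance members, and none of them passed the test of the Lhx1os pull-downs against LacZ.

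The genes lower with the block were mostly ligands: 9 of 32 ligands against 2 of 32 receptors in LacZ, 10 against 1 in ODD, and 8 against 1 in EVEN. Whether ligands and receptors differ was not tested. Efnb1, Ntn1, Sema3c, Efnb3, Sema4b, Efna2, Sema4d and Ephb2 were lower in all 3 pull-downs. Slit1 and Ntn4 passed in LacZ and ODD, Ephb4 in LacZ, Sema6a in ODD and Sema5a in EVEN. Ntn1 was lower by a log2 fold change of -0.85 ± 0.18 in LacZ, -0.79 ± 0.18 in ODD and -0.85 ± 0.18 in EVEN with the block (edgeR adjusted p 0.0148, 0.0199 and 0.0158), and without it the adjusted p was 0.152, 0.19 and 0.165. For Slit1 the values were -0.85 ± 0.21, -0.76 ± 0.21 and -0.73 ± 0.21 (edgeR adjusted p 0.0307, 0.0451 and 0.0511). Sema3c had -0.64 ± 0.12, -0.62 ± 0.12 and -0.58 ± 0.12 (edgeR adjusted p 0.0105, 0.0126 and 0.0172). Sema4b, with 7.67 and 5.66 FPKM in Input and 3.75 to 4.29 in the pull-downs, had -0.74 ± 0.16, -0.71 ± 0.16 and -0.79 ± 0.16 (edgeR adjusted p 0.0187, 0.0221 and 0.0162). Sema4d, with 5.40 and 2.72 in Input, 2.99 and 1.81 after LacZ capture, 3.14 and 1.95 after ODD capture and 3.10 and 2.15 after EVEN capture, was lower than its own Input in each experiment.

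Some of these calls changed in a fit that also corrected for base composition. When the trend of the counts with GC content was also removed from each library, in addition to the block, 5 guidance genes were higher and 8 lower in LacZ, and for ODD and EVEN the counts were 5 and 7, and 5 and 8. Of all genes tested, noncoding rows included, this fit called 12.2% higher and 12% lower for LacZ. The shares were the same for ODD, and 11.8% higher and 11.4% lower for EVEN. Robo3, Epha10, Epha6, Efnb1 and Sema3c passed in all 3 comparisons in this fit too. Plxna3 was then also higher in all 3, at log2 fold changes of 0.81, 0.75 and 0.80 in LacZ, ODD and EVEN, as was Slit3 in LacZ and EVEN at 0.52 and 0.43. Sema3a and Sema3d, between -1.07 and -0.77, and Epha3, between -0.59 and -0.47, were then lower in all 3. Ntn1, Slit1, Efnb3, Ephb2, Efna2 and Sema4b no longer passed in any, and in LacZ their log2 fold changes were -0.58 ± 0.19, -0.58 ± 0.24, -0.32 ± 0.13, -0.37 ± 0.16, -0.49 ± 0.18 and -0.49 ± 0.17. These were smaller in size than without the correction and of the same sign. The guidance genes tested had a median GC content of 56.3% against 49.7% for protein-coding genes tested, taken from the longest annotated transcript of each gene. The median change of the EphA receptors and of the class 4 semaphorins took the other sign in this fit in at least 1 comparison.

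**Figure D2:**
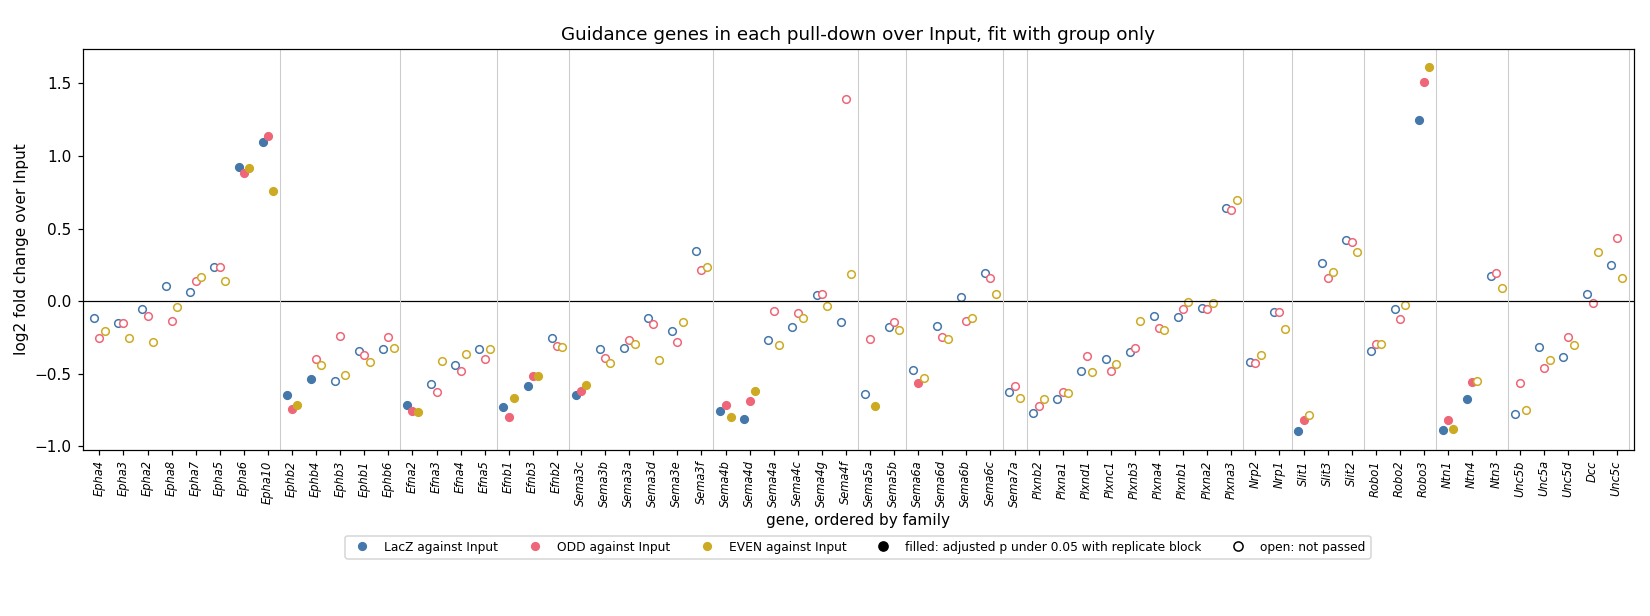
Log2 fold change of each of the 64 guidance genes in LacZ, ODD and EVEN over Input, from the fit with group only, ordered by family and by value. Filled points passed an adjusted p of 0.05 when the replicate was also a block. The 3 colours lie close together for most genes, Robo3, Epha10 and Epha6 stand filled above 0, and Sema4f is high in ODD alone.

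The comparison that bears on capture by the Lhx1os probes is with the LacZ pull-down. No guidance gene passed it. ODD against LacZ, EVEN against LacZ and their mean against LacZ had 0 of 64 guidance genes called by edgeR, beside 0% of all genes tested in each, both with and without the block. The genes not called included the bait. Scaled for library size (CPM), Lhx1os was at 2.06 and 2.44 after LacZ capture, 180 and 35.7 after ODD capture and 149.5 and 25.4 after EVEN capture. These fits thus missed the RNA that the probes were made to capture. Their lack of calls does not show that guidance RNAs were not captured. At an unadjusted edgeR p under 0.05 there were 1, 0 and 0 guidance genes (1.03%, 1.71% and 1.32% of all genes). DESeq2 and limma called 0 guidance genes, where DESeq2 called 1, 13 and 2 of all genes and limma 0. The median log2 fold change of the guidance genes was -0.00, -0.01 and 0.00. For the mean of both Lhx1os captures, 34 were positive and 30 negative. With group only, the smallest p-values in EVEN belonged to Dcc at 0.29 ± 0.33, Epha10 at -0.34 ± 0.40 and Sema6b at -0.14 ± 0.18 on the log2 scale. With the block the smallest belonged to Robo3 at 0.41 ± 0.19 (edgeR adjusted p 1.00). In simulated counts, 85.5% of genes given a log2 difference of 2 between the mean Lhx1os capture and LacZ were recovered. For a difference of 1 the share was 0%. The simulated counts held no shift shared by libraries of the same experiment, which the real libraries show. These shares therefore do not say what size of difference the real test would find.

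The guidance gene farthest from LacZ was Sema4f, a membrane semaphorin of neurons and glia, and a single library carried it. It had 2.43 and 3.83 FPKM in Input, 1.86 and 3.93 after LacZ capture, 11.7 and 4.73 after ODD capture and 2.24 and 4.71 after EVEN capture. ODD replicate 1 stood far above the 7 other libraries, and the other 5 pull-downs overlapped Input. In ODD replicate 1 Sema4f was 4.80 times its own Input (777 counts), and in ODD replicate 2 it was 1.22 times that experiment's Input (257 counts). The log2 fold change in ODD against LacZ was 1.54 ± 0.60, with an edgeR adjusted p of 1.00. With no filter on low counts beyond 1 count it passed at 1.55 (edgeR adjusted p 0.00402), and over all other settings tried the adjusted p stayed at 1.00. Without ODD replicate 1 the log2 fold change was 0.72. In EVEN against LacZ it was 0.33 ± 0.59.

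Among the 64 guidance genes, the largest fold changes lay between the experiments rather than between capture and Input. Replicate 2 was above replicate 1 for 18 guidance genes and below it for 13 of 64 in edgeR's fit with group and replicate. The shares of all genes tested were 15% and 12.4%, and of 13455 protein-coding genes 2152 were above and 1912 below. Ligands were higher for 11 and lower for 4 of 32, and receptors higher for 7 and lower for 9 of 32. Class 3 semaphorins were higher for 4 of 6 and lower for none (3 of 6 with RLE size factors), ephrin-Bs and Slits each higher for 2 of 3, and EphB receptors lower for 2 of 5. For 12 guidance genes, or 18.8%, all 4 libraries of replicate 2 lay above those of replicate 1 (12.7% of all genes tested), and for 10, or 15.6%, they lay below (10.6%). These tests describe 2 experiments with 1 cell line. The counts of guidance genes changed when 1 library was left out. Shares of all genes in those fits are not given, so this change was not read as one of the guidance genes.

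**Figure D3:**
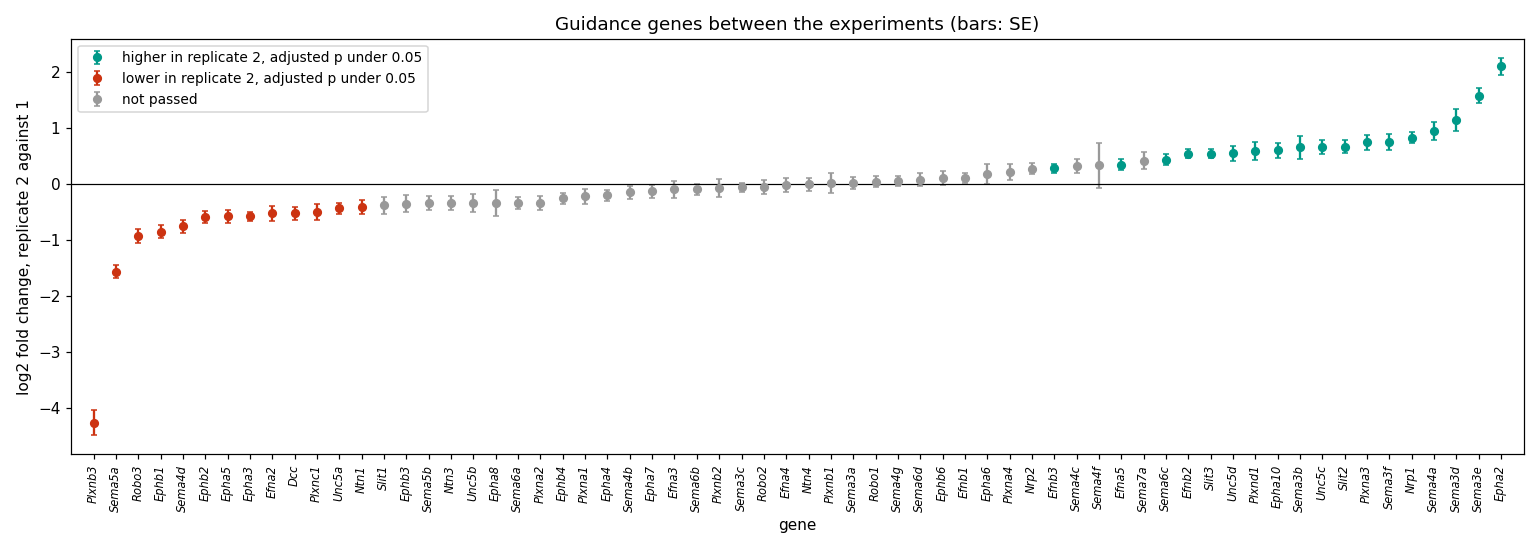
Log2 fold change of replicate 2 against replicate 1 for the 64 guidance genes, ordered by value, with bars for the SE of the fit with group and replicate. Green points are higher and red points lower at an adjusted p of 0.05. Plxnb3 lies far below all others at -4.26, and Epha2 and Sema3e lie highest.

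Plxnb3, the plexin of oligodendrocytes, was all but lost in replicate 2. It had 3.95 FPKM in Input replicate 1, 3.21 in LacZ, 3.02 in ODD and 3.49 in EVEN, against 0.120, 0.166, 0.240 and 0.227 FPKM in replicate 2. The log2 fold change was -4.26 ± 0.23 (edgeR adjusted p 7.3e-05), or 19.1-fold. Sema5a, which has both attractive and repulsive actions, had 7.52, 4.42, 5.98 and 4.31 FPKM in the replicate 1 libraries and 2.05, 1.92, 2.05 and 1.46 in replicate 2, a log2 fold change of -1.56 ± 0.12 (edgeR adjusted p 0.000205). The other large falls were Robo3 at -0.92 ± 0.13, Ephb1 at -0.84 ± 0.12 and Sema4d at -0.75 ± 0.11. The replicates did not overlap for Plxnb3, Sema5a, Ephb1 and Sema4d, while Robo3 overlapped between the experiments and lay above Input in both.

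The gene that rose most was Epha2, an Eph receptor of epithelia and of the embryonic node, with 0.391, 0.364, 0.341 and 0.341 FPKM in the replicate 1 libraries and 1.69, 1.65, 1.62 and 1.32 in replicate 2. Its log2 fold change was 2.11 ± 0.16 (edgeR adjusted p 0.000192). Sema3e, the cue that acts on Plxnd1, had 0.582, 0.508, 0.386 and 0.507 FPKM in replicate 1 and 1.63, 1.44, 1.46 and 1.44 in replicate 2, a change of 1.58 ± 0.13 (edgeR adjusted p 0.000292). The experiments did not overlap in either gene. Sema3d rose by 1.15 ± 0.19 and Sema4a by 0.95 ± 0.16. Nrp1 rose by 0.83 ± 0.10, Sema3f by 0.76 ± 0.13 and Plxna3 by 0.75 ± 0.14. Among the motor axon receptors, Epha3 fell by 0.57 ± 0.08, Ephb2 by 0.58 ± 0.10 and Dcc by 0.52 ± 0.12, while Epha4 at -0.19 ± 0.10 and Epha7 at -0.13 ± 0.11 did not pass.

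Cell type markers moved between the experiments as well. The 6 glial markers summed to 96.5 to 141 FPKM in replicate 1 and 17.0 to 25.0 in replicate 2, with 4 of 4 tested lower in replicate 2. They included S100b at -5.19 ± 0.24, while the astrocyte markers Gfap and Aqp4 were at or under 0.213 FPKM everywhere. Neural progenitor markers went from 400 to 482 FPKM down to 242 to 305, with 4 of 6 lower, and fibroblast markers from 23.7 to 40.4 down to 13.8 to 20.98, with 3 of 6 lower. Motor neuron markers went from 60.1 to 67.2 FPKM up to 99.7 to 111, with 5 of 7 higher. Floor plate markers went from 49.0 to 69.6 up to 90.5 to 127, with 3 of 3 higher, and 4 of 7 interneuron markers were higher. Their part in the guidance gene differences was not tested. In the fit with group only, no marker of any of these lists was called in a pull-down over Input. The fit with the block was not read out for them, so this does not show that capture left the markers unchanged.

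**Figure D4:**
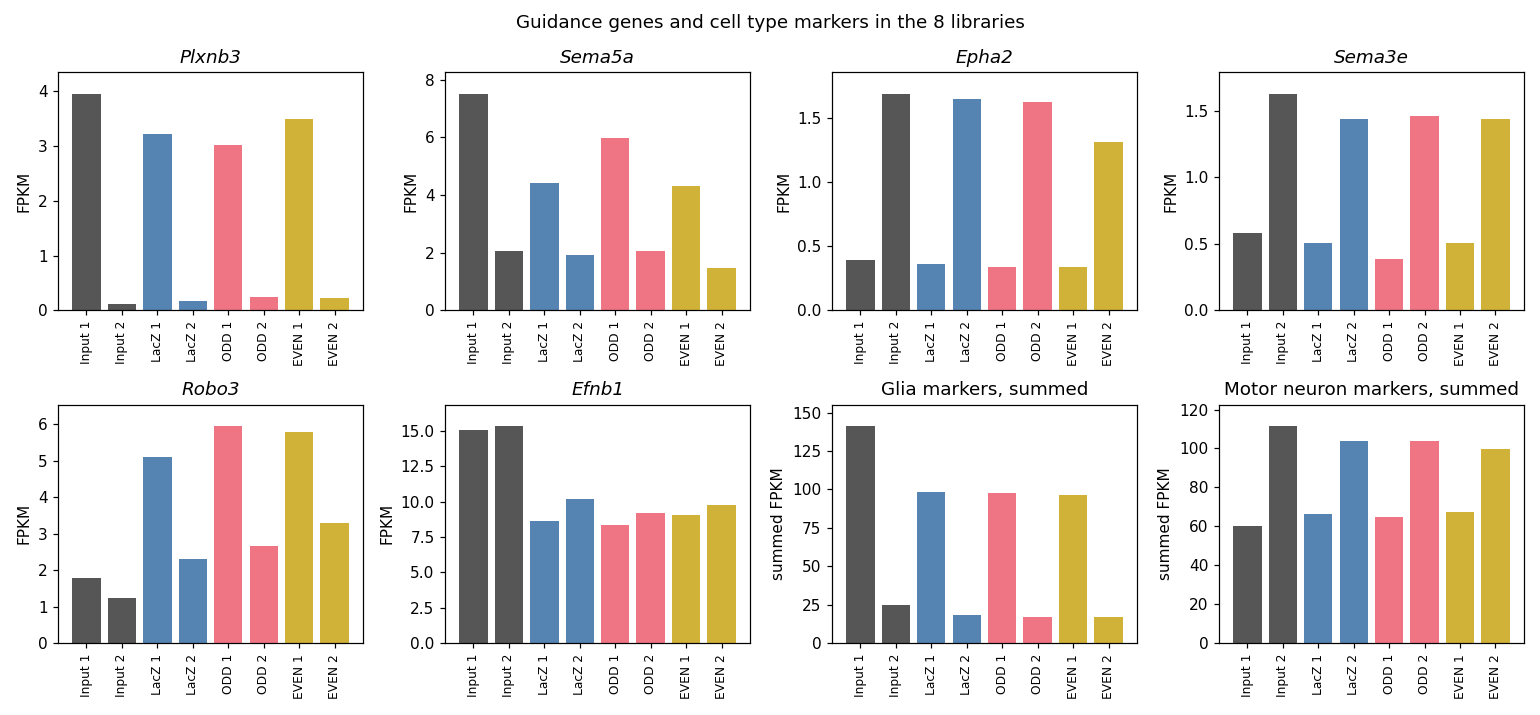
FPKM in each of the 8 libraries for 6 guidance genes, and summed FPKM of the glial and motor neuron markers, as bars from 0. Plxnb3, Sema5a and the glial markers are high in the replicate 1 library of every group, Epha2, Sema3e and the motor neuron markers in the replicate 2 library, Robo3 is higher in every pull-down than in its own Input, and Efnb1 is highest in both Input libraries.

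The promoters of the 4 guidance genes that differed most between the experiments are shown because they moved in opposite directions. Each runs from 250 bases before to 50 bases after the transcript start, from RefSeq on GRCm38.p6, at chrX:73756853-73757152 for Plxnb3, chr15:32244563-32244862 for Sema5a, chr4:141300971-141301270 for Epha2 and chr5:14025026-14025325 for Sema3e, all on the plus strand. Capitals mark matches, on either strand and with overlaps merged, to the GC box GGGCGG, and to 3 other motifs that were searched. These were the TATA box (letters TATAAA), the CCAAT box and the E-box with the letters CAGATG.
Plxnb3: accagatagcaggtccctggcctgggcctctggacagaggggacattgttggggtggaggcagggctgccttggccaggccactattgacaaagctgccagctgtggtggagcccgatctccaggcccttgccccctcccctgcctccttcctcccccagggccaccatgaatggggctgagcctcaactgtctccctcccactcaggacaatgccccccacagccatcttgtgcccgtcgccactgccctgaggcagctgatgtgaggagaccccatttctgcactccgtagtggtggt
Sema5a: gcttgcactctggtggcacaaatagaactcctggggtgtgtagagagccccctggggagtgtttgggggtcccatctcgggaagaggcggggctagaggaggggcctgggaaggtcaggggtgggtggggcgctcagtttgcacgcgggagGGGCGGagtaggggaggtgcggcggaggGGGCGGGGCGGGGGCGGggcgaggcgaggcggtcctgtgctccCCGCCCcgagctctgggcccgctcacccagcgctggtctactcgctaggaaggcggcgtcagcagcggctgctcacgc
Epha2: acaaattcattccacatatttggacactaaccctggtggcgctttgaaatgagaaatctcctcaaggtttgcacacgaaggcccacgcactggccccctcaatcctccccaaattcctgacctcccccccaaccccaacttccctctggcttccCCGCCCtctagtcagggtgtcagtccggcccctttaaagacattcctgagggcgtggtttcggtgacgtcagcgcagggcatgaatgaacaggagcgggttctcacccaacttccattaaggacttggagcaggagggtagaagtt
Sema3e: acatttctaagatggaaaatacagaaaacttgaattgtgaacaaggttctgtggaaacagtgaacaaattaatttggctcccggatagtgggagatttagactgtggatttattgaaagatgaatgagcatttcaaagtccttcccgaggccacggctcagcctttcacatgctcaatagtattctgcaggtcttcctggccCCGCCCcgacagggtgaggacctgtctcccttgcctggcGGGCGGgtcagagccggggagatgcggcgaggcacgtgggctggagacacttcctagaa
None of those 3 was found. Plxnb3 had 0 GC boxes and 4 CpG dinucleotides, Sema5a 5 GC boxes and 23 CpG, Epha2 1 GC box and 10 CpG, and Sema3e 2 GC boxes and 11 CpG. Of the guidance genes, 59 had a promoter in the table, 75 promoters in all, and 70.7% of these held a GC box against 35.7% of the 32851 promoters of the table. TATAAA was in 2.67% against 13.6%, CCAAT in 28% against 37.4%, and CAGATG in 6.67% against 17.2%. A match is a description of the letters and not evidence of binding.

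Noncoding rows of the tables also lie inside the guidance genes: 78 rows in 34 of them, of which 28 in 13 genes were tested. Of those 28, 24 did not reach the filter's minimum in both Input libraries and were tested through their pull-down counts, so the filter bears on their difference from Input and no count is given. The other 4 were of the class TEC (transcripts that the annotation marks as still to be tested by experiment) and lay on the strand of the host gene. In Slit2, Gm42537 (chr5:48211672-48214245 on GRCm38) had 51 and 68 counts in Input, 162 and 341 after LacZ capture, 161 and 311 after ODD capture and 178 and 251 after EVEN capture, although both Input libraries had larger totals than any pull-down. Its log2 fold change was 3.23 ± 0.49 in LacZ (edgeR adjusted p 0.00989), and it was 2.98 in ODD and 2.80 in EVEN. Gm42534, also in Slit2, had 23 and 27 counts in Input and 75 to 174 after capture, and a change of 3.46 ± 0.48 in LacZ (edgeR adjusted p 0.00763). Slit2 itself was at 0.42 ± 0.40 in LacZ (edgeR adjusted p 0.677). E230020D15Rik in Efnb2 and Gm37121 in Nrp2 were at 1.68 ± 0.65 and 1.60 ± 0.46 in LacZ, and passed with the block alone (edgeR adjusted p 0.00418 and 0.0106). None of these 4 passed in both Lhx1os captures together against LacZ by edgeR, a test that did not call Lhx1os itself. A rise over Input was common to the class. Of all 1355 TEC rows tested, 834 (61.5%) were higher in LacZ with group only and 1099 (81.1%) with the block. Their median log2 fold change with group only was 2.80. Among the 1355, 1035 did not reach the filter's minimum in both Input libraries, so the filter bears on these shares too.

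The wider guidance machinery was read from a list of 78 other genes: 29 adhesion molecules and co-receptors and 49 intracellular relays, all of them tested. In each pull-down over Input 0 were higher and 2 lower (2.56%) by edgeR with group only, beside 0.43%, 0.375% and 0.284% of all genes lower in LacZ, ODD and EVEN. These were Sdc3, a heparan sulfate proteoglycan, and Cxcr4, the chemokine receptor that holds motor axons on their ventral path. Sdc3 had 57.5 and 39.01 FPKM in Input and 20.9 to 25.5 in the pull-downs, with log2 fold changes of -1.09 ± 0.22, -1.05 ± 0.22 and -1.04 ± 0.22 (edgeR adjusted p 0.0289, 0.036 and 0.0422 in LacZ, ODD and EVEN). Cxcr4 had 56.8 and 47.0 FPKM in Input and 22.4 to 28.5 in the pull-downs, at -1.08 ± 0.19, -1.003 ± 0.19 and -1.05 ± 0.19 (edgeR adjusted p 0.0172, 0.0234 and 0.0241). Input stood clear of every pull-down for both. With the block 1 was higher and 8 lower in LacZ, and for ODD and EVEN the counts were 0 and 7, and 1 and 11, with Rgma, Lingo1 and Cdh2 among those lower in all 3. In this fit 7%, 6.55% and 6.41% of all genes were lower, as were 1147, 1070 and 1044 of the 13455 protein-coding genes tested. Against LacZ, 0 of 78 passed in ODD, EVEN or their mean by edgeR in either fit, nor did Lhx1os itself. At an unadjusted edgeR p under 0.05 there were 0 in each with group only and 1 in each with the block.

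Between the experiments 19 of the 78 rose and 14 fell in replicate 2 (42.3%, beside 27.4% of all genes tested). Of the 13455 protein-coding genes tested, 4064 were called. Relays that link receptors to the growth cone skeleton rose for 14 and fell for 4 of 49. Among them were the semaphorin relays Crmp1 at 0.57 ± 0.09, Dpysl2 at 0.35 ± 0.10, Dpysl3 at 0.42 ± 0.11 and Dpysl5 at 0.57 ± 0.09, and the actin-binding netrin relays Ablim1 at 0.74 ± 0.08 and Ablim3 at 0.74 ± 0.15. The 4 that fell were Rnd2 at -1.33 ± 0.16, Rnd1 at -0.86 ± 0.12, Farp2 at -0.66 ± 0.12 and Fyn at -0.61 ± 0.08. Rnd1 and Rnd2 are small GTPases, Farp2 is an exchange factor that acts with class A plexins, and Fyn is a kinase downstream of several guidance receptors. Adhesion molecules and co-receptors rose for 5 and fell for 10 of 29. Met, the receptor for hepatocyte growth factor on limb motor neurons, rose by 2.01 ± 0.23 and Ret, the GDNF receptor, by 0.67 ± 0.09. Flrt1 fell by 1.71 ± 0.15, Cntn1 by 1.63 ± 0.11, Dscaml1 by 1.56 ± 0.20 and Ntrk2 by 1.13 ± 0.13.

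The guidance genes also shared features that the choice by name did not use. The 64 tested spanned a median of 87.8 kb against 26.2 kb for the 13455 protein-coding genes tested, and 32 (50%) spanned at least 100 kb, against 16.3%. Dcc was the longest at 1097 kb. Their exons summed to a median of 7041 bases against 4642. Chromosomes 5 and 9 held 7 each, with 4 class 3 semaphorins on chromosome 5, and Efna1, Efna3 and Efna4 lay on chromosome 3. Across the 64 genes, Spearman's rank correlation of the LacZ over Input log2 fold change was 0.138 with gene span, -0.133 with GC content and 0.25 with exon length, beside 0.149, -0.173 and 0.241 over protein-coding genes. These are correlations across genes that share libraries, and genes are not independent replicates.

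Because Lhx1os was the bait, its 3 annotated transcripts, of 524 to 599 nt, were searched for exact stretches shared with the transcripts of each guidance gene. The longest stretches are shown, from 5′ to 3′ as they stand in the guidance transcript, with the whole shared run in capitals. The first 3 have the same strand in both RNAs, and that of Epha10 is the reverse complement of Lhx1os. The Epha10 run is also the reverse complement of the Sema4b run, so both match the same letters of Lhx1os. Repeated sequences of the genome were not masked in the search.
Sema4a: AGTACTGGGATTAAAGA
Sema4b: CTGTCCTGGAACTCACT
Unc5d: CAGGCAGCTACTTAGCT
Epha10: AGTGAGTTCCAGGACAG
Each is 17 nt. Stretches of at least 17 nt were found on the same strand in 3 of 69 guidance genes (4.35%) against 6.28% of 16507 genes, and as a reverse complement in 1 (1.45%) against 5.5%. None reached 18 nt, against 3.59% and 3.14% of genes. Robo3 and Efnb1 shared at most 11 nt and 13 nt with Lhx1os in either orientation, and Sema4f none of 11 nt or more. Neither Sema4a, Sema4b and Unc5d nor Epha10 passed the edgeR test of ODD or EVEN against LacZ. Lhx1os itself did not pass that test either.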

How the data were processed

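RNA from 8 libraries, 2 each of Input, LacZ, ODD and EVEN, was sequenced after ribosomal RNA depletion with a stranded kit, per the labels' protocols. The authors deposited gene counts and FPKM for the same 55471 rows. The submitters' processing notes name cutadapt 3.2, Bowtie2 2.4.2, Picard, HTSeq 0.13.5 and GRCm38, without roles; no source read here names the annotation or the strand setting of the counting. FPKM as deposited equal the deposited counts divided by row length and library total (largest relative difference 6.66e-14), so every guidance gene has both. Symbols and coordinates came from GENCODE M21 on GRCm38, which matched 55230 rows, and 99.1% of the lengths were equal.

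The test was edgeR 4.0.16 on the counts, run in R 4.3.3 (quasi-likelihood, TMM factors of 0.965 to 1.03, filterByExpr, group as the only term, all 8 libraries, 16524 genes), with Benjamini-Hochberg adjustment over all genes tested and a threshold of 0.05. The filter asked for a CPM of 0.853 in 2 libraries, computed here from the counts, and 63 of the 64 guidance genes met it through both Input libraries. The labels tie a replicate number to an independent experiment, and same-numbered libraries deviated together from their group means (correlations of 0.494 to 0.70 over 6 pairs of groups). The model with a replicate block therefore stands beside the results it changes, and gave the comparison of experiments. Alternatives were a further GC correction, RLE size factors, total counts, other filters, DESeq2 1.42.0, limma 3.58.1 on log2(FPKM + 1) or log2(FPKM + 0.1), and leaving out each library. The calculation was tested on simulated data with 200 changed genes.

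Values in every library are given for the most abundant member of each family, for members past the threshold (the 12 with the largest change where there were more), for the 3 with the smallest p where there were none, and for textbook motor axon guidance genes. Members, lists and this rule were chosen with earlier results of these data known. Promoters came from RefSeq on GRCm38.p6.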

Additional observations from a re-analysis of the deposited data

How the results depend on the processing

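With the replicate as a block, the guidance genes higher than Input numbered 3 in LacZ, 3 in ODD and 3 in EVEN, and those lower 11, 11 and 9, against 0, 0 and 0 higher and 1, 1 and 0 lower without it. With the GC trend also removed there were 5, 5 and 5 higher and 8, 7 and 8 lower. With no filter beyond 1 count there were 1, 3 and 1 higher and 4, 5 and 2 lower, and 1 guidance gene was higher in ODD against LacZ. In that setting 2118, 2064 and 1860 of all genes were called over Input in either direction, and 75 in ODD against LacZ. DESeq2 gave 3, 2 and 3 lower and 1 higher in EVEN, where it called 1663, 1560 and 1452 of all genes. A minimum of 50 counts in 2 libraries gave 0 lower in LacZ and 0 in ODD, and total counts alone 0 lower in LacZ. Shares of all genes are not given for these last settings or for the fits with 1 library left out, so those counts stand without a background. Of the 78 other pathway genes, the block gave 1 higher and 8 lower in LacZ, 7 lower in ODD, and 1 higher and 11 lower in EVEN. The cause of these shifts was not tested. The block changed no call against LacZ.

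Leaving out 1 library at a time gave 0 to 3 guidance genes lower in LacZ, 0 to 2 in ODD and 0 to 1 in EVEN, the highest count each time without Input replicate 2, and between the experiments 11 to 24 higher and 8 to 14 lower. Among single genes, Sema5a in EVEN against Input ranged from -1.68 without EVEN replicate 1 to 0.51 without Input replicate 1. Dcc in EVEN against LacZ ranged from -0.16 without EVEN replicate 1 to 0.63 without EVEN replicate 2, and Ntn4 in both Lhx1os captures together against LacZ from -0.0011 without LacZ replicate 1 to 0.26 without LacZ replicate 2. None of these 3 passed the main test. The Input level of Sema7a was 5.66 per kilobase with TMM scaling against 5.62 FPKM. With 2 libraries a group, log2 changes of 1 were not recovered in simulated data, which held no shift between the experiments apart from the changed genes. In the real data Efnb1 passed in LacZ against Input at -0.73, so the simulation does not set the limit of the real test.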
